A study of Homo sapiens with 22 samples.

Results

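The clustered protocadherins are the protein-coding genes of human chromosome 5 whose symbols begin with PCDHA, PCDHB or PCDHG. By symbol, 53 of the 19974 protein-coding genes of the annotation were members: 15 in the alpha, 16 in the beta and 22 in the gamma cluster. The members were chosen by symbol and position, but the family was singled out with results of these data known, so its values are given as a description. Accessible chromatin was measured by ATAC-seq, in which the Tn5 transposase inserts adapters into open DNA, and the values are the authors' peaks called in each library. The 22 libraries came from the multiple myeloma cell lines KMS34 (10 libraries) and KMS11 (12 libraries). The labels name NSD2LDD as the agent that induces degradation of NSD2, a histone methyltransferase that the t(4;14) translocation places under immunoglobulin heavy chain control. There were 11 groups of 2 libraries: KMS34 t(4;14) in NSD2LDD at day 4 and day 10, in DMSO at day 4 and day 10, and at day 0; KMS11 t(4;14) in the same 5 conditions; and KMS11 labelled TKO at day 0. The sources used here do not say what TKO stands for, how the day 0 libraries were treated or at which concentrations NSD2LDD was used. The libraries of a group are numbered as duplicates, and nothing says that they came from separate cultures, so each p-value measures the spread between these libraries, which may be technical.

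Clustered protocadherins are cell-surface adhesion receptors that bind like molecules on neighbouring cells. In neurons each cell uses a different few of them, chosen by promoter, which lets a neuron tell its own branches from those of others. Each alpha and gamma member has its own promoter and variable first exon, spliced to constant exons shared by the whole cluster, while each beta member is a single coding exon. Most of these promoters carry a conserved sequence element and a site for CTCF, which with cohesin brings a chosen promoter to distant enhancers.

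The 3 clusters follow each other on the + strand of 5q31 (hg38). The alpha cluster runs over chr5:140786140-141012347 (226.2 kb), the beta cluster over chr5:141051374-141249365 (198.0 kb) and the gamma cluster over chr5:141330514-141512975 (182.5 kb). The gene models of all 15 alpha members end at the same base, and so do those of all 22 gamma members. Peaks were therefore counted by position and at each member's start, and not by gene body. With 50 kb before the first and after the last member the locus spans 826.8 kb.

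The 150 bases before the starts of 12 members are shown so that promoters with and without a called peak can be read side by side. They come from the RefSeq table of GRCh38.p14, which held promoters for 47 of the 53 members, and run 5′ to 3′. PCDHA3, PCDHA13, PCDHB6, PCDHB11, PCDHGA12 and PCDHGC5 had no entry. Capitals mark 1 pattern per cluster, picked by reading these promoters: ATGTCGCT in alpha, GGTGGCGC in beta and GCCGCT in gamma. Of the alpha members shown, PCDHA4 had a called peak in all 10 KMS34 libraries, PCDHA8 in 1 of 10 and PCDHA5 in none.
PCDHA4 (chr5:140806918-140807067, + strand): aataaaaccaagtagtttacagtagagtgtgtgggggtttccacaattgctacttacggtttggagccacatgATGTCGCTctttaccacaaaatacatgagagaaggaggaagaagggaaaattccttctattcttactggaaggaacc
PCDHA8 (chr5:140841037-140841186, + strand): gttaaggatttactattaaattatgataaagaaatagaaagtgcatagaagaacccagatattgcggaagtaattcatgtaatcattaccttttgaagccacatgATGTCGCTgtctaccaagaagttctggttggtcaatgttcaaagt
PCDHA5 (chr5:140821463-140821612, + strand): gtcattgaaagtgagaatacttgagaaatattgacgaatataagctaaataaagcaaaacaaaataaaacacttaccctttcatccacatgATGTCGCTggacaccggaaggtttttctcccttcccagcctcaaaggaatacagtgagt

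Of the beta members shown, PCDHB9 and PCDHB14 had a called peak in 10 of 10 KMS34 libraries, PCDHB10 in 4, PCDHB7 in 2 and PCDHB16 in none.
PCDHB9 (chr5:141187011-141187160, + strand): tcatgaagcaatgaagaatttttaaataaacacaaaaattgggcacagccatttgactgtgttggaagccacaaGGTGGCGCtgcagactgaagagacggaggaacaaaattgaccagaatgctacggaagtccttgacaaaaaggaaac
PCDHB14 (chr5:141223193-141223342, + strand): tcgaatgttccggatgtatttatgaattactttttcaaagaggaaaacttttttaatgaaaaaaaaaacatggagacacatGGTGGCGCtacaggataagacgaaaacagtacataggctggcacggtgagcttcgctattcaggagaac
PCDHB10 (chr5:141192203-141192352, + strand): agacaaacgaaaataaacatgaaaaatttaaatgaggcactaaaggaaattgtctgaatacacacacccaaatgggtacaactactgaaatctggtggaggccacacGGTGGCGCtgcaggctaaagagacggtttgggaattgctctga
PCDHB7 (chr5:141172494-141172643, + strand): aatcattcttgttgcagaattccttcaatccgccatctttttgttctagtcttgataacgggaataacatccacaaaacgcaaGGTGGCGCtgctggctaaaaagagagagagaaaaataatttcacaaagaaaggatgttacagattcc
PCDHB16 (chr5:141182237-141182386, + strand): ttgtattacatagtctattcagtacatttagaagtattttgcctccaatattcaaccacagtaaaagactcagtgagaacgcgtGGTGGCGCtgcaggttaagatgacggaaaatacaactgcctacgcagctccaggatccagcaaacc

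Of the gamma members shown, PCDHGB3, PCDHGA7 and PCDHGA11 had a called peak in 10 of 10 KMS34 libraries and PCDHGA1 in 1.
PCDHGB3 (chr5:141370092-141370241, + strand): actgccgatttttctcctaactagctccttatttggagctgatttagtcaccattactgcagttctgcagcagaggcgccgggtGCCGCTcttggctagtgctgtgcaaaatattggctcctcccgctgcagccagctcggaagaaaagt
PCDHGA7 (chr5:141382592-141382741, + strand): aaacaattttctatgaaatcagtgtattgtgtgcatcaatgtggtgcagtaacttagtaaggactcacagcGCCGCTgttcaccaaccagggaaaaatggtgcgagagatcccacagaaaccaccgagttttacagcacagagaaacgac
PCDHGA11 (chr5:141420901-141421050, + strand): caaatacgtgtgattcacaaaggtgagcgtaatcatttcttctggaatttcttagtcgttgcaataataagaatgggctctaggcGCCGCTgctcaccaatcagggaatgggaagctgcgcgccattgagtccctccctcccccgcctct
PCDHGA1 (chr5:141330364-141330513, + strand): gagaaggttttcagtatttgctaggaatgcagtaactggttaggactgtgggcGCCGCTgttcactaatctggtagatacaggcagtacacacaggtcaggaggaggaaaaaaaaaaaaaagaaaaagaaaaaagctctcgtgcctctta

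The capitals stand in a similar place in most members. The first base of the alpha pattern lay 85 to 42 bases before the start (median 52), that of the beta pattern 84 to 2 bases before it (median 66) and that of the gamma pattern 97 to 42 bases before it (median 66). Over the 300-base promoters, searched on both strands, ATGTCGCT was present in 9 of 13 alpha members, against 0.23% of all 35116 promoters in the table. GGTGGCGC was present in 13 of 14 beta members, against 2.23% of all promoters. GCCGCT was present in 13 of 20 gamma members, against 22.7% of all promoters. Each pattern was picked by reading these promoters, so a high share in its own cluster is given by the choice.

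The letters alone did not separate members with a called peak from the others. ATGTCGCT was in 2 of 2 alpha promoters with a called peak in any library and in 7 of 11 without one. GGTGGCGC was in 4 of 4 beta promoters with a called peak and in 9 of 10 without one, and GCCGCT was in 4 of 4 gamma promoters with a called peak and in 9 of 16 without one. A core of the CTCF motif, searched in the same way, matched in 1 of 47 members, PCDHB9, where it overlapped GGTGGCGC, and in 10.58% of all promoters. A match is a description of these windows and not a bound site, and no match says only that the searched letters are not in them.

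Peaks in the locus were several times more numerous in KMS34 than in KMS11. Values of 4 NSD2LDD or DMSO libraries are listed with the 2 of day 4 before the 2 of day 10. The KMS34 libraries held 13, 13, 13 and 15 peaks in NSD2LDD, 13, 14, 14 and 16 in DMSO, and 12 and 13 at day 0. The KMS11 libraries held 4, 5, 4 and 3 peaks in NSD2LDD, 4, 4, 3 and 4 in DMSO, 3 and 2 in TKO, and 3 and 3 at day 0. The lowest KMS34 library was above the highest KMS11 library. Over DMSO and day 0 libraries the mean was 13.7 ± 1.37 peaks in KMS34 and 3.5 ± 0.55 in KMS11 (SD, n = 6 each). Covered length followed the same order, with 6303 to 9312 bp in KMS34 (median 7441 bp) and 1116 to 2579 bp in KMS11 (median 1839.5 bp).

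Inside the clusters themselves the lists of KMS11 were nearly empty. Between the first and last member of a cluster the KMS34 libraries held 9 to 12 peaks each and the KMS11 libraries 0 or 1. All 4 KMS11 peaks inside a cluster lay at the start of PCDHB14. The other KMS11 peaks of the locus lay in the gaps between the clusters or after the gamma cluster. Counted per cluster with 50 kb either side, windows that overlap each other, KMS34 libraries held 2 to 4 alpha, 4 to 6 beta and 7 to 9 gamma peaks. KMS11 libraries held 0 or 1 alpha, 0 to 2 beta and 2 or 3 gamma peaks.

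**Figure D1:**
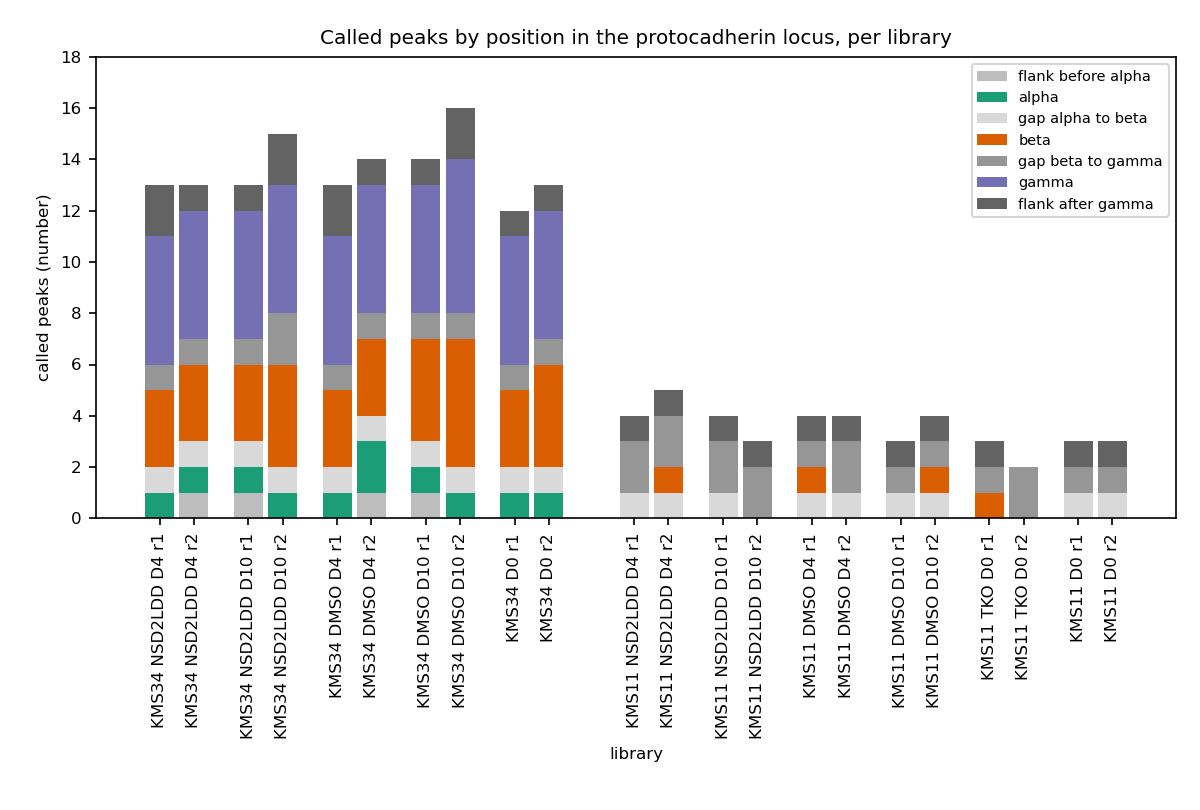
Number of called peaks per library (bar height), stacked by position in the locus: flanks of 50 kb, the 3 clusters and the gaps between them; r1 and r2 are the 2 libraries of a group. KMS34 libraries reach 12 to 16 peaks, most of them inside the clusters, and KMS11 libraries 2 to 5, most of them outside.

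List length, which stands in for the unknown depth, differed between the lines, and its part in the difference in peaks was not tested. Lists held 34165 to 52518 peaks in KMS34 and 24979 to 39002 in KMS11. The shortest KMS34 list, in DMSO at day 4, held 13 peaks in the locus, and the longest KMS11 list, also in DMSO at day 4, held 4. Per 10000 peaks of the list there were 2.62 to 3.81 in KMS34 and 0.74 to 1.33 in KMS11. With every list shortened to its 24979 strongest peaks, the difference of the means, KMS34 minus KMS11, was 7.33 peaks in place of 10.2.

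The cells' labels were set against markers at the gene starts in the same promoter table. A peak was called at 6 of 7 plasma cell markers in KMS34 libraries and at 6 or 7 in KMS11 libraries, and SDC1, IRF4, PRDM1, XBP1, CD38 and MZB1 were called in all 22. Starts of 3 T and NK cell markers and 3 myeloid markers were called in no library. Of 2 B cell markers and 1 stromal marker, none was called in KMS34 libraries and 0 or 1 of each type in KMS11 libraries. Of 5 neuron markers, 2 to 4 were called in KMS34 libraries and 2 in KMS11 libraries. SYT1 and TUBB3 were called in all 22 and GAP43 in none; their part in the values of the protocadherins was not tested. Peaks spanned 690 to 4060 bp of NSD2 in KMS34 and 374 to 1716 bp in KMS11, and it met the threshold in neither line under NSD2LDD. Over DMSO and day 0 libraries NSD2 was higher in KMS34 than in KMS11 (log2 difference 0.80, limma adjusted p 0.0433). So were 20.9% of all tested genes. Peaks over NSD2 do not measure its protein.

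Peaks at starts were counted within 1 kb either side of each member's first base. In KMS34, 11 of the 53 starts were called in at least 1 library and 7 in all 10. That is 13.2% of members, against 60.5% of 15812 protein-coding genes in the promoter table. A gene of that table counted as called where any of its listed starts was. A member was scored at its first base only, so the shares are not measured alike. These 7 were PCDHA4 in alpha, PCDHB9 and PCDHB14 in beta, and PCDHGB3, PCDHGA7, PCDHGA11 and PCDHGA12 in gamma. In KMS11 only PCDHB14 was called, in 4 of 12 libraries. The starts of 6 members (11.3%) were called in all 10 KMS34 libraries and in no KMS11 library, against 1.40% of the genes in that table. In no library of either line were 42 members called (79.2%, against 29.9% of those genes): 13 alpha, 12 beta and 17 gamma. Among them were the C-type members PCDHAC1, PCDHAC2, PCDHGC3, PCDHGC4 and PCDHGC5.

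These 7 starts were picked for a call in all 10 KMS34 libraries, so their recurrence over days and treatments is given by the choice. Each KMS34 library had 7 to 9 called starts and each KMS11 library 0 or 1. Of all genes in the promoter table, 62.8 to 65.6% had any listed start called in KMS34 and 56.3 to 63.4% in KMS11. Only 4 further members were called, each in a minority of KMS34 libraries: PCDHB10 in 4, PCDHB7 in 2, and PCDHA8 and PCDHGA1 in 1 each. In lists of equal length no start was called in all 10 KMS34 libraries, 8 were called in at least 1, and none was called in KMS11. That alternative was chosen after the data were seen. Per member, PCDHGB3 and PCDHGA12 were then called in 9 of 10 KMS34 libraries, PCDHA4 in 8, PCDHGA7 and PCDHGA11 in 7, PCDHB14 in 5 and PCDHB9 in 2. Among peaks with a −log10 q of 5 or more, 6 of the 7 starts were still called in all 10, and PCDHB9 was not.

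**Figure D2:**
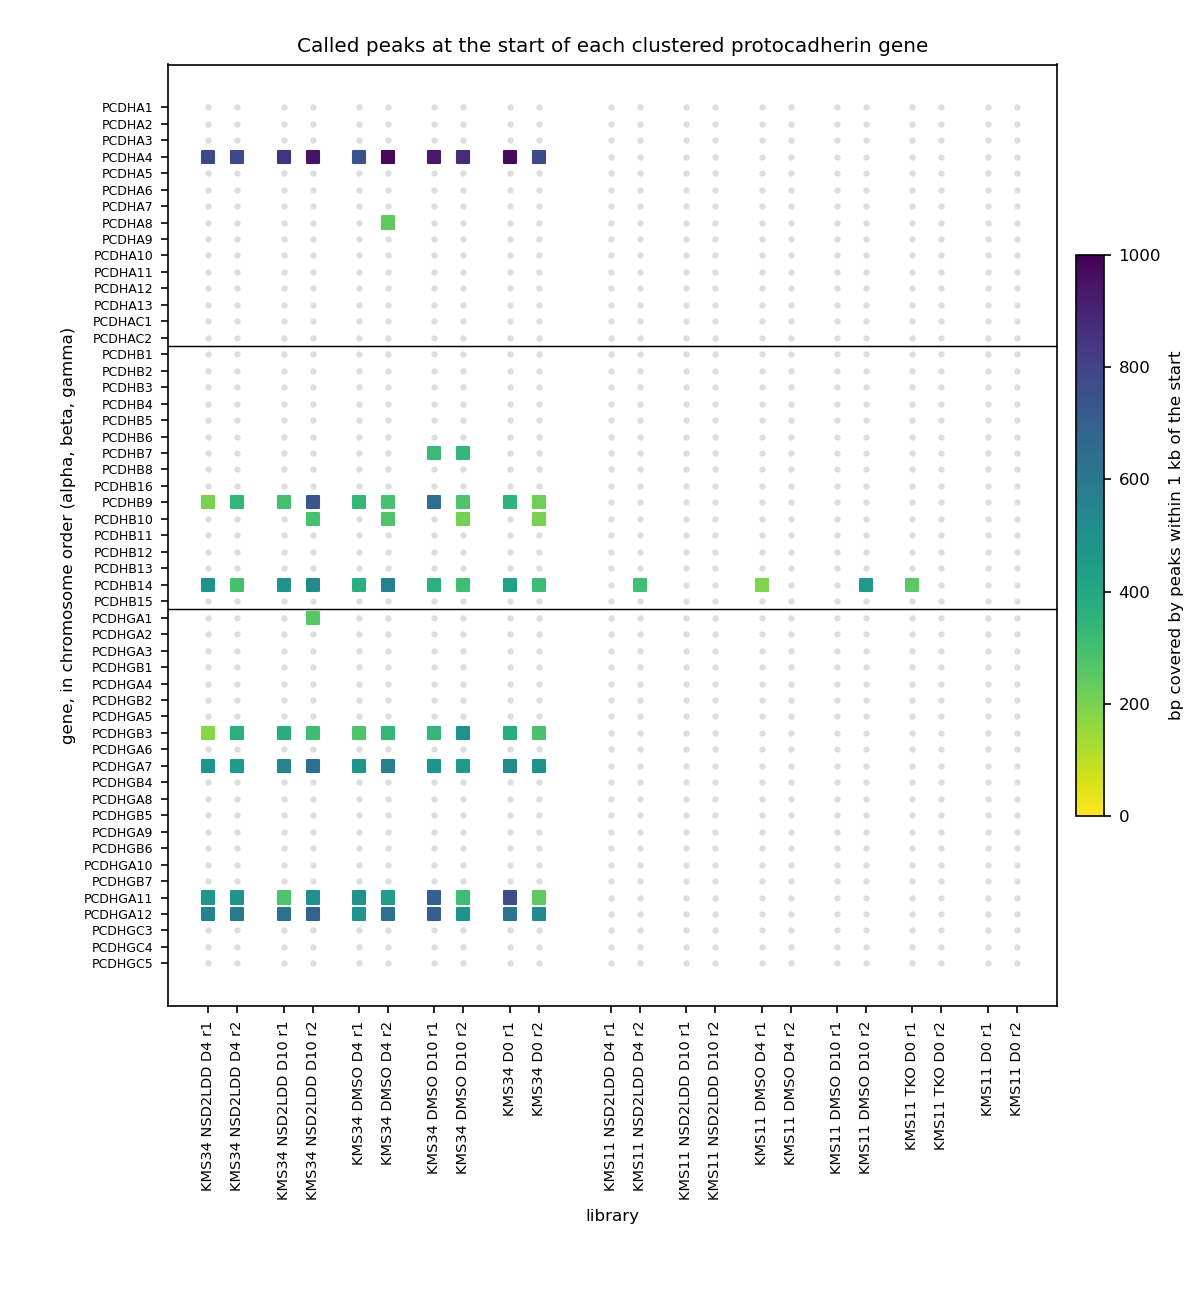
Bases covered by called peaks within 1 kb of the start of each of the 53 members (rows, in chromosome order; lines separate the clusters) in each library (columns); grey dots mark starts with no called peak and colour gives bp. Rows for PCDHA4, PCDHB9, PCDHB14, PCDHGB3, PCDHGA7, PCDHGA11 and PCDHGA12 are filled in all 10 KMS34 libraries, and PCDHB14 alone is filled in KMS11, in 4 of 12.

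Peaks were merged across libraries into regions, of which 19 lay in the locus, 11 of them at a member's start, and each region was valued, library by library, by how many of its bases peaks covered. PCDHA4, an alpha member with a variable first exon of its own, had the widest region among the starts, at chr5:140806861-140807900. It was covered by 780, 780, 853 and 953 bp in KMS34 NSD2LDD, by 749, 976, 935 and 881 bp in KMS34 DMSO, and by 972 and 778 bp in KMS34 at day 0. It had 0 bp in all 12 KMS11 libraries. The treated and DMSO libraries of KMS34 overlapped, with means of 842 ± 81.9 bp in NSD2LDD and 885 ± 98.8 bp in DMSO (SD, n = 4 each). Its summits lay 304 to 533 bases after the start (median 456), within the gene. Median summits of PCDHGA11 and PCDHGA12 also lay after the start, by 75 and 110 bases. Those of PCDHB9, PCDHB14, PCDHGB3 and PCDHGA7 lay between 55.5 bases before and 4 bases after the start. Single summits reached 459 bases after the start at PCDHGA12 and 290 at PCDHB14.

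PCDHB9, a single-exon beta member, was covered at chr5:141186718-141187700 by 203, 338, 296 and 727 bp in KMS34 NSD2LDD, 338, 292, 642 and 278 bp in KMS34 DMSO, and 350 and 222 bp in KMS34 at day 0. It had 0 bp in all KMS11 libraries, and its peaks were among the weaker ones of their lists, with a median rank at 68.8% of the list by the deposited −log10 q. PCDHB14, another single-exon beta member, was covered at chr5:141223208-141223871 by 497, 293, 497 and 517 bp in KMS34 NSD2LDD, 370, 573, 362 and 308 bp in KMS34 DMSO, and 425 and 318 bp in KMS34 at day 0. In KMS11 it was covered by 301 bp in 1 of 4 NSD2LDD libraries, 189 and 459 bp in 2 of 4 DMSO libraries, 253 bp in 1 of 2 TKO libraries, and 0 bp in the others. It was the member start called in both lines, and the KMS34 and KMS11 values overlap between 293 and 459 bp.

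The gamma cluster held the other 4 starts called in every KMS34 library, and none of them was covered in any KMS11 library. PCDHGB3, of the gamma B group, was covered at chr5:141369942-141370484 by 176, 366, 376 and 314 bp in KMS34 NSD2LDD, 277, 339, 343 and 495 bp in KMS34 DMSO, and 378 and 289 bp in KMS34 at day 0. PCDHGA7, of the gamma A group, was covered at chr5:141382608-141383255 by 484, 452, 550 and 641 bp in KMS34 NSD2LDD, 473, 572, 483 and 463 bp in KMS34 DMSO, and 524 and 499 bp in KMS34 at day 0. Over the 10 KMS34 libraries PCDHGA7 averaged 514 ± 58.8 bp (SD), the smallest SD of the 7 starts, and PCDHB9 averaged 369 ± 174 bp, the largest.

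PCDHGA11 and PCDHGA12 are neighbours at the downstream end of the gamma A group. PCDHGA11 was covered at chr5:141420927-141421737 by 478, 488, 279 and 507 bp in KMS34 NSD2LDD, 496, 448, 699 and 308 bp in KMS34 DMSO, and 772 and 245 bp in KMS34 at day 0. PCDHGA12 was covered at chr5:141430418-141431153 by 557, 597, 627 and 688 bp in KMS34 NSD2LDD, 482, 624, 706 and 483 bp in KMS34 DMSO, and 608 and 531 bp in KMS34 at day 0. At all 7 starts the NSD2LDD and DMSO libraries of KMS34 overlapped, and no KMS34 group stood apart from the others. The 7 were picked for a call in every KMS34 library, so a start lost or gained under NSD2LDD could not be among them.

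**Figure D3:**
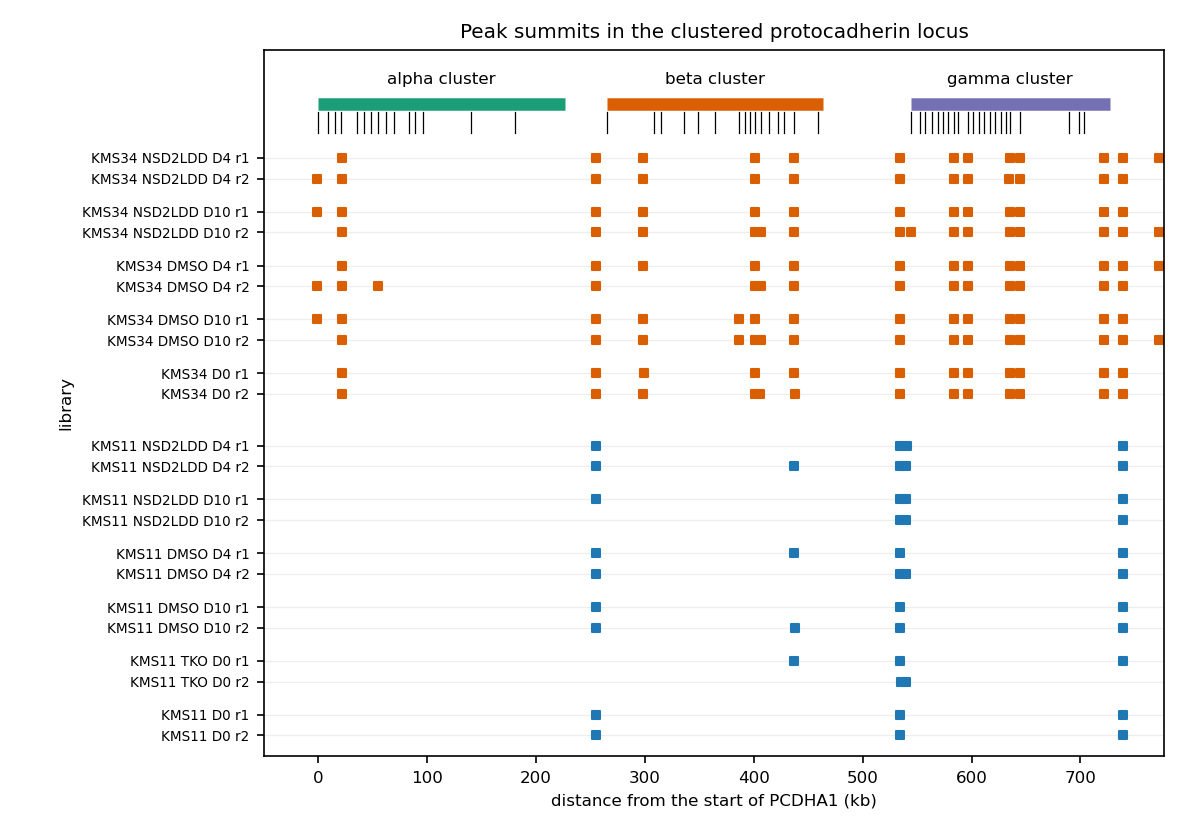
Summits of called peaks (squares) in each library, by distance from the start of PCDHA1 in kb; bars show the 3 clusters and ticks below them the member starts. The same positions recur from library to library in KMS34, and KMS11 summits lie in the gaps, after the gamma cluster and, in 4 libraries, at PCDHB14.

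The region inside a cluster with the highest median −log10 q, 44.9, lay at no member's start. It stood at chr5:141507077-141508442, 18678 bases from the start of PCDHGC5 and 4533 bases before the shared end of the gamma gene models towards which the constant exons of the cluster lie. It was covered by 923, 1003, 1098 and 1324 bp in KMS34 NSD2LDD, 783, 1346, 1141 and 816 bp in KMS34 DMSO, 1015 and 1184 bp in KMS34 at day 0, and 0 bp in all 12 KMS11 libraries. By −log10 q it ranked in the top 13.0 to 27.9% of its lists. It remained in 10 of 10 KMS34 lists and 0 of 12 KMS11 lists when all lists were given equal length. A second region away from promoters, chr5:141084373-141085086 between PCDHB1 and PCDHB2, was covered in 9 of 10 KMS34 libraries, by 591, 356, 387 and 534 bp in NSD2LDD, 206, 0, 501 and 495 bp in DMSO, and 541 and 347 bp at day 0. It too had 0 bp in every KMS11 library.

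The fit over all regions places these values among the rest of the genome. It used limma on log2 of the covered length plus 100 bp, with Benjamini-Hochberg adjustment over 69187 regions called in at least 2 libraries, 17 of them in the locus. Between KMS34 and KMS11 in DMSO and at day 0, 11 of the 17 were higher in KMS34 at an adjusted p under 0.05 and none was lower, while 20.0% of all tested regions were higher in KMS34 and 34.3% were called in either direction. The median log2 difference, KMS34 minus KMS11, was 1.43 over the 17 and 0.14 over all. Regions called in all 10 KMS34 libraries and in no KMS11 library numbered 7 in the locus and made up 3.50% of all tested regions. The difference between lines is one that the choice of the family may rest on, so nothing is read from these counts.

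Over gene bodies with 5 kb either side, 33 of the 53 members were covered in at least 2 libraries and could be tested. In KMS34 minus KMS11, 31 of them were higher in KMS34 and none was lower, against 20.9% of all tested genes higher. These windows are nested and share peaks. All 22 gamma members take in the region 4533 bases before their shared end, so this is not a count of separate events.

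Under NSD2LDD the locus differed from DMSO by less than 1 peak on average in either line. With gaps and flanks the mean peak number was 13.5 ± 1.0 in KMS34 NSD2LDD and 14.2 ± 1.26 in KMS34 DMSO (SD, n = 4 each), a difference of -0.75. In KMS11 it was 4.0 ± 0.82 in NSD2LDD and 3.75 ± 0.5 in DMSO (SD, n = 4 each), a difference of 0.25. Both of these differences are smaller than 1 SD of either group. Inside the clusters alone the mean was 9.25 ± 0.5 in KMS34 NSD2LDD and 10.25 ± 1.26 in KMS34 DMSO (SD, n = 4 each). That difference was larger than over the whole locus and exceeded the SD of the NSD2LDD group, though not that of DMSO. In KMS11 the mean inside the clusters was 0.25 ± 0.5 in NSD2LDD and 0.5 ± 0.577 in DMSO (SD, n = 4 each). The KMS11 difference thus turned to -0.25 inside the clusters, and for the whole locus to -0.083 without the second KMS11 NSD2LDD day 4 library. In the limma fit 1 of 17 regions was called in KMS34, against 0.986% of all tested regions in either direction and 0.344% lower in NSD2LDD. In KMS34 2 had an unadjusted p under 0.05, as did 9.88% of all. Besides the called region this was the one between PCDHB1 and PCDHB2, higher in NSD2LDD (log2 difference 0.81, unadjusted limma p 0.0318). None of 17 was called in KMS11 (background 0.0694%), where 1 had an unadjusted p under 0.05, as did 4.80% of all. None differed between the lines' responses (background 0.00578%), where 2 had an unadjusted p under 0.05, as did 5.99% of all. These 2 were the start of PCDHB7 and chr5:141326125-141326668, which also had an unadjusted p under 0.05 within a line, so they are not separate results. These backgrounds are themselves unsteady: in KMS34 the share of all regions called was 0.199% with a replicate block, 0.166% without the first KMS11 NSD2LDD day 4 library and 1.61% without the second KMS34 DMSO day 10 library. In KMS11 it was 0.0361% with the block and 0.0390 to 0.126% with 1 library left out. Between the lines' responses it was 0% with the block and 0 to 0.0217% with 1 library left out. By gene body 0 members were called under NSD2LDD in either line, as were 0 of all 16738 genes tested. By unadjusted p under 0.05, limma picked 1 member in KMS34, PCDHB7, with 1044 of all genes, and 1 in KMS11, PCDHGA1, with 586 of all genes. The window of PCDHGA1 takes in chr5:141326125-141326668, the region with the unadjusted p under 0.05 in KMS11, so the 2 are not separate results. No KMS11 library had a peak at the PCDHGA1 start.

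The region called in KMS34 was the start of PCDHB7, a single-exon beta member, at chr5:141172510-141172856. It was covered by 0 bp in all 4 KMS34 NSD2LDD libraries and by 0, 0, 321 and 340 bp in KMS34 DMSO, where the covered libraries were the 2 of day 10. It had 0 bp in both KMS34 day 0 libraries and in all of KMS11. The limma fit gave it an adjusted p of 0.0432 for NSD2LDD minus DMSO. The call was lost with a replicate block (adjusted p 0.0659) and with lists of equal length, where neither peak remained. The pattern rests on 2 peaks of low rank, at a −log10 q of 5.97 and 6.23, and is shared by 3.01% of all tested regions, counted as no call in 4 NSD2LDD libraries and at least 2 calls in 4 DMSO libraries. The adjusted p stayed under 0.05 in only 4 of 22 fits that each left out 1 library: those without either KMS34 DMSO day 10 library or either KMS34 day 0 library.

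In KMS11 the lowest p under NSD2LDD belonged to chr5:141326125-141326668, which lies between TAF7, a subunit of the general transcription factor TFIID, and PCDHGA1, the first gamma member, and 4118 bases before the start of PCDHGA1. It was covered by 491, 340, 321 and 501 bp in KMS11 NSD2LDD and by 0, 154, 0 and 0 bp in KMS11 DMSO, which do not overlap. It was further covered by 0 and 477 bp in TKO, by 0 bp in both KMS11 day 0 libraries and by 0 bp in all 10 KMS34 libraries. The log2 difference in KMS11, NSD2LDD minus DMSO, was 2.00 ± 0.48 (SE), with an adjusted p of 0.154 in the limma fit, and did not pass the threshold. Without either TKO library, which the comparison does not use but the shared spread does, the adjusted p was 0.0409 or 0.0374. A call in 4 of 4 NSD2LDD and at most 1 of 4 DMSO libraries of KMS11 was seen in 0.356% of all tested regions.

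TKO libraries held 2.5 ± 0.71 peaks in the locus and day 0 KMS11 libraries 3.0 ± 0.0 (SD, n = 2 each). Inside the clusters alone the order turned round, with 0.5 ± 0.707 in TKO and 0.0 ± 0.0 at day 0. The limma fit called 1 of 17 regions, against 4.07% of all tested regions in either direction and 3.10% lower in TKO, and 0 of 33 members by gene body (0 also at an unadjusted p under 0.05), against 4.69% of all genes tested. The called region, chr5:141040981-141041431, stands in the gap between the alpha and beta clusters, 10168 bases before PCDHB1. It was covered by 0 and 0 bp in TKO and by 346 and 289 bp in KMS11 at day 0, an all-or-none pattern seen in 3.99% of all tested regions. The log2 difference, TKO minus day 0, was -2.20 ± 0.47 (SE; adjusted p 0.0125 by limma), a size that depends on the 100 bp added because TKO is at 0. The call was lost without the first TKO library (adjusted p 0.0871) and without the second day 0 library (adjusted p 0.0739). The TKO lists held 30699 and 26887 peaks, and those of KMS11 at day 0 held 36913 and 24979; the part of list length in this result was not tested.

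The same gap region was covered in the other groups of both lines. It had 346, 396, 367 and 404 bp in KMS34 NSD2LDD, 389, 387, 386 and 281 bp in KMS34 DMSO, and 427 and 217 bp in KMS34 at day 0. In KMS11 it had 325, 428, 206 and 0 bp in NSD2LDD and 374, 353, 215 and 407 bp in DMSO. It was thus called in 19 of 22 libraries, and the lines overlap. Enhancers of the alpha cluster are known downstream of its last exon. No annotation of them was used here, so the region is named by position only. The start of TAF7, in the gap between beta and gamma at chr5:141320244-141321357, was called in all 22 libraries, with 764 to 1079 bp in KMS34 and 621 to 1078 bp in KMS11.

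**Figure D4:**
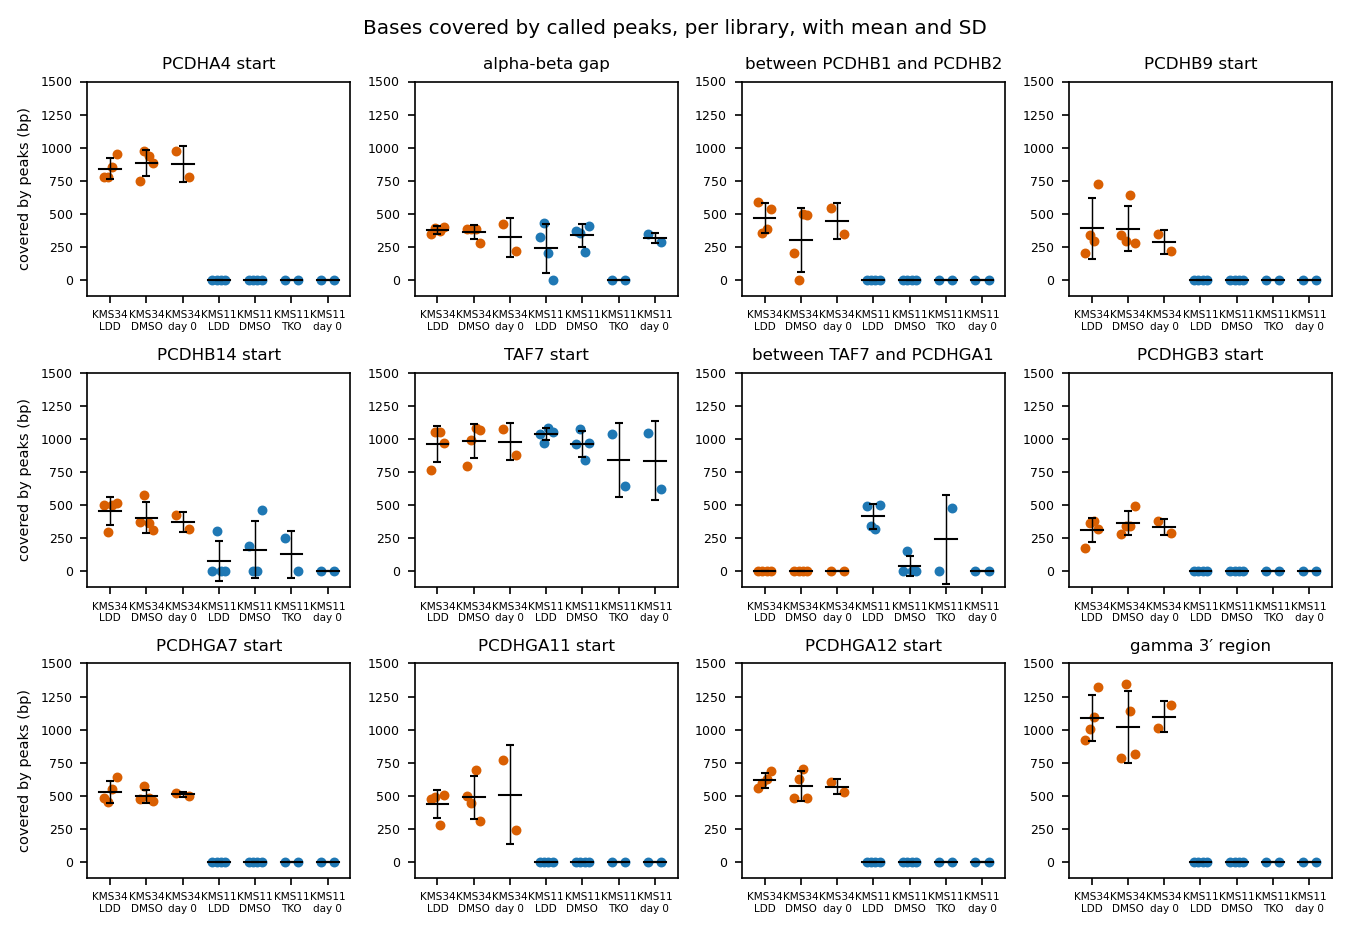
Bases covered by called peaks in 12 regions of the locus, 1 point per library, with the group mean and SD as lines, both days pooled; LDD stands for NSD2LDD. The member starts other than PCDHB14 and the gamma 3′ region are at 0 in every KMS11 group, the alpha-beta gap is at 0 only in both TKO libraries and 1 KMS11 NSD2LDD library, and TAF7 is covered throughout.

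Related genes were described by gene body from 4 lists, in the same limma fit over 16738 genes. For KMS34 minus KMS11, where 35.6% of all tested genes were called in either direction, the lists did not move one way. Of 24 tested other protocadherins and giant cadherins, 5 were lower and 5 higher in KMS34, with a median log2 difference of 0.04 against 0.04 over all genes. CDHR1, a cadherin of photoreceptors, was covered by 1065 ± 393 bp in KMS34 and by 0 bp in KMS11 (SD, n = 6 each). CELSR1, a planar polarity cadherin, was covered by 52.7 ± 129 bp in KMS34 and 1047 ± 270 bp in KMS11. PCDH7, a non-clustered protocadherin, was covered by 453 ± 102 bp in KMS34 and 1487.5 ± 549 bp in KMS11, and CDHR5, a cadherin of the intestinal brush border, by 833 ± 275 bp in KMS34 and 1581 ± 338 bp in KMS11.

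Among 27 factors of chromosome architecture and silencing, 7 were lower and 3 higher in KMS34. DNMT1, the maintenance DNA methyltransferase, was covered by 1140 ± 331 bp in KMS34 and 2015.5 ± 705 bp in KMS11, and TET3, a 5-methylcytosine dioxygenase, by 2559 ± 301 bp in KMS34 and 3237 ± 614 bp in KMS11. LRIF1, a partner of the silencing factor SMCHD1, was covered by 2190.0 ± 347 bp in KMS34 and 1033 ± 287 bp in KMS11, and MAU2, part of the cohesin loader, by 1739 ± 434 bp in KMS34 and 924 ± 222 bp in KMS11 (SD, n = 6 each). Peaks at these genes do not measure the amount of the factors. Among 19 intracellular partners, 3 were lower and 4 higher in KMS34, led by RET, a receptor tyrosine kinase, with 1236.5 ± 689 bp in KMS34 and 110 ± 123 bp in KMS11.

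Of 21 tested neighbours within 250 kb of the family, 2 were lower and 7 higher in KMS34. RELL2, related to the TNF receptor family member RELT, was covered by 1694 ± 306 bp in KMS34 and 1048 ± 303 bp in KMS11, and ZMAT2, a zinc finger splicing factor, by 523.5 ± 193 bp in KMS34 and 988 ± 314 bp in KMS11 (SD, n = 6 each). Both were called in 6 of 6 libraries of each line. None of the 4 lists had a gene called under NSD2LDD in either line. In TKO against day 0 KMS11, where 4.69% of all genes were called in either direction, 2 of 24 other protocadherins and giant cadherins were lower. Of 19 partners 1 was lower and 1 was higher, and of 27 architecture factors and 21 neighbours none was called. The higher partner was CYFIP1, of the WAVE actin regulatory complex, with 936.5 ± 579 bp in TKO and 0 bp at day 0 (SD, n = 2 each).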

How the data were processed

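ATAC-seq peak lists of 22 libraries were analysed. Per the submitters' processing notes, fastp, BWA, SAMtools, Picard, MACS3 and deepTools were used on hg38. The sources used here give no versions, Tn5 shift or calling settings. The deposited lists give each peak's position, a score, a fold enrichment ratio over the background the caller modelled, a −log10 p and a −log10 q; the smallest deposited −log10 q is 2.0. The authors called peaks per library. Only positions, summits and the −log10 q (for ranks and filters within a list) were used here. The lists hold no counts, so depth is unknown, an uncalled peak may be absent or only too shallow, and list length (24979 to 52518 peaks) stands in for it.

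Peaks were merged across libraries into 96166 regions. Values were log2 of covered bases plus 100 bp (regions) or 200 bp (genes with 5 kb either side), less the library median over features called in all libraries. They were fitted with limma 3.58.1 (trend, robust; R 4.3.3) with 1 mean per group (11 groups, 22 libraries), over features called in at least 2 libraries, and adjusted by Benjamini-Hochberg at 0.05. Within each line, NSD2LDD was compared with DMSO over days 4 and 10 together; further comparisons were the difference of these effects, TKO minus day 0 KMS11, and KMS34 minus KMS11 over DMSO and day 0 libraries. A limma call on the locus is a description beside the share of all features called. Scripts were checked on simulated data and against bedtools 2.31.1; other steps used Python 3.11.15, numpy 2.4.6, pandas 2.3.3 and matplotlib 3.10.9. Gene positions and promoters (250 bases before to 50 after the start) are RefSeq's, on GRCh38.p14.

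The members, lists, tests and named-gene rule were chosen with earlier results of these data known, and the motif letters after the promoters were read. Named are members called at the start in most libraries of a line, regions past the threshold or with the lowest p, and up to 4 called genes of each list. The alternatives were a replicate block, no scaling, −log10 q of at least 5, equal list lengths, called or not, no flanks, a start window of 250 bp, TKO against day 0 and DMSO, and each library left out. Called or not scored a region by whether peaks covered a set share of its merged length, given below, and a gene by any covered base. Over 55 pairs of groups the correlation of deviations of same-numbered libraries ran from -0.172 to 0.207 for regions. For genes it ran from -0.212 to 0.274. Pairs of NSD2LDD and DMSO in the same line and day were not looked at apart, so whether the numbers pair libraries stays unknown.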

Additional observations from a re-analysis of the deposited data

Results flagged for a closer look

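Of 80 sets of 4 libraries (a line in NSD2LDD or in DMSO, both days pooled), 11 had a library far from the other 3, its gap to the nearest exceeding the critical share of the range in Dixon's test. The 80 include sets with the same value in all 4 libraries, such as 0 bp throughout, which could not be flagged. So the share of 11 in 80 cannot be set against the 1 in 20 that chance alone flags among sets that vary. Values at 0 or in small whole numbers reach the limit easily. In KMS34 NSD2LDD, the second day 10 library held 15 peaks in the locus while the others held 13. That library alone was covered at the start of PCDHB10 (292 bp) and PCDHGA1 (262 bp). At PCDHB14 the second day 4 library had 293 bp, with 497 to 517 bp in the others. At PCDHGA11 the first day 10 library had 279 bp, with 478 to 507 bp in the others.

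In KMS34 DMSO, the second day 4 library alone was covered at the start of PCDHA8 (243 bp). The second day 10 library had 281 bp at the alpha-beta gap region, with 386 to 389 bp in the others. The first day 10 library had 642 bp at PCDHB9, with 278 to 338 bp in the others. In KMS11 NSD2LDD, the second day 4 library alone was covered at PCDHB14 (301 bp). In KMS11 DMSO, the first day 10 library held 3 peaks in the locus where the others held 4, and the second day 4 library alone was covered at the region between TAF7 and PCDHGA1 (154 bp). The causes were not tested.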

How the results depend on the processing

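The count of 11 regions and 31 genes higher in KMS34 than in KMS11 stayed within 1.5 times of these values under every alternative run. Scaling shifted the median log2 difference of all regions, to 0.14 with it and 0.32 without it for KMS34 minus KMS11, and to -0.14 and 0 for TKO minus day 0; without it 32 in place of 31 genes were called between lines and no other count past the adjusted threshold in the locus changed. In the called-or-not alternative a region scored as called where peaks covered at least 0.5 of its merged length, and a gene where any base was covered. A narrow peak in a wide region thus scored as uncalled. Scored this way, 1 region passed the threshold under NSD2LDD in KMS11 and 0 regions in TKO. In the difference between the lines' responses 2 regions and 2 genes passed it, and in KMS34 under NSD2LDD 2 genes. With lists of equal length 0 regions were called under NSD2LDD in KMS34. The starts called in all 10 KMS34 libraries then numbered 0 and those in any KMS11 library 0. The KMS34 minus KMS11 difference in peaks was 8.20 with full lists scaled to the median list length, and 7.33 in lists of equal length. There, PCDHB9 (adjusted p 0.783) and the region between PCDHB1 and PCDHB2 (0.101) no longer passed the limma threshold between lines, and the log2 difference of the alpha-beta gap region for NSD2LDD minus DMSO in KMS11, -0.59 in the limma fit and not called, was 0.0031. That difference was -0.0881 without the second and -1.09 without the first KMS11 NSD2LDD day 10 library. Without flanks the difference in peaks was -0.25 for NSD2LDD minus DMSO in KMS11 and 0.5 for TKO minus day 0, so both turned round. The causes were not tested.

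With a replicate block the PCDHB7 call in KMS34 was lost (limma adjusted p 0.0659, 0 regions), and no other adjusted count in the locus moved by over 1.5 times. Over all regions the calls under NSD2LDD numbered 138 in KMS34, 25 in KMS11 and 0 for the difference between them. Nothing in the labels says whether the duplicate numbers pair libraries across groups. Leaving out 1 library at a time gave 9 to 11 regions and 28 to 31 genes for KMS34 minus KMS11, 0 to 1 regions and 0 to 1 genes for NSD2LDD in KMS11, 0 to 1 regions for NSD2LDD in KMS34, and 0 to 2 regions and 0 to 1 genes for TKO. It gave differences in peaks of 9.7 to 10.5 between lines, -0.083 to 0.583 for NSD2LDD in KMS11, -1.25 to -0.167 in KMS34 and -1.0 to 0.0 for TKO. Unknown depth limits every statement on uncalled starts.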

Other observations

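At the edges of the locus, chr5:140784143-140784720, 1709 bases before the start of PCDHA1, was called in 2 of 4 KMS34 NSD2LDD and 2 of 4 KMS34 DMSO libraries (176 and 202 bp in NSD2LDD, 578 and 229 bp in DMSO), and in no KMS34 day 0 and no KMS11 library. After the gamma cluster, DIAPH1, which encodes an actin-nucleating formin, held a region at chr5:141524661-141525615 that was called in 10 of 10 KMS34 libraries (707 to 921 bp) and 11 of 12 KMS11 libraries (0 to 659 bp). A second region in DIAPH1, chr5:141557791-141558256, was called in 4 of 10 KMS34 libraries and in no KMS11 library.

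The boundaries set what was counted. The nearest region outside lay 74509 bp before the alpha cluster and 51036 bp after the gamma cluster, just past the 50 kb flank, and was called in 12 and 20 libraries. The last region inside, 44816 bp after the gamma cluster, was called in 4.

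Both libraries of a group mostly shared their regions in the locus: 11 to 13 of 13 to 16 in the KMS34 groups, and 3 or 4 of 3 to 5 in the KMS11 groups other than TKO. The TKO libraries shared 1 of 4, the start of TAF7.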
